A study of Arabidopsis thaliana with 18 samples.

Results

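*GSTF6* and *CYP79B2* are the 2 genes described here, both genes of camalexin and indole glucosinolate synthesis, which are the main indole defense compounds of *Arabidopsis*. They were chosen by name with earlier results of these data known, as genes that stay partly inducible in both mutants. Their rises in the mutants, and the smaller size of these rises than in WT, therefore describe the choice and do not test it. Each was measured by 1 of the 22746 probe sets tested on the ATH1 array: 262119_s_at for *GSTF6* (AT1G02930) and 252827_at for *CYP79B2* (AT4G39950). The study examined systemic acquired resistance (SAR), the immunity that spreads to uninfected leaves after a local infection. RNA came from 2 systemic leaves collected 48 hr after 3 lower leaves were infiltrated with the virulent bacterium *Pseudomonas syringae* pv. *maculicola* (*Psm*, OD600 of 0.002) or with 10 mM MgCl2 as the mock treatment. The 6 groups of 3 arrays were *lecrk-VI.2-2* with *Psm*, *lecrk-VI.2-2* with MgCl2, *bak1-5* with *Psm*, *bak1-5* with MgCl2, the wild type (WT, Col-0) with *Psm*, and WT with MgCl2. *lecrk-VI.2-2* is 1 insertion allele of the lectin receptor kinase gene *LecRK-VI.2*, and *bak1-5* is 1 point mutant of the co-receptor kinase gene *BAK1*. Both are in the Col-0 background, so each gene is represented by a single allele. Each sample pooled 12 plants, and the labels do not say whether the samples of a group were grown or treated apart, so *q* values here rest on a spread between samples that may be partly technical.

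Indole defense compounds are made from tryptophan. CYP79B2, a cytochrome P450, and its close relative CYP79B3 turn tryptophan into indole-3-acetaldoxime, the branch point from which CYP83B1 leads to indole glucosinolates and the CYP71A enzymes lead to camalexin, the characteristic phytoalexin of *Arabidopsis*. Both branches take their sulfur from glutathione. GSTF6 is a phi class glutathione *S*-transferase that has been placed at the step joining glutathione to the camalexin precursor, and its transcript is also widely used as a marker of stress and salicylic acid responses.

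All levels are log2 signals after robust multi-array averaging (RMA). The 2 probe sets were named by matching the study's supplementary list of genes that rose in WT, because the platform annotation assigned neither to a single gene. A rise in WT was thus a condition of their being named. This favors WT in each comparison of *GSTF6* or *CYP79B2* with a mutant. The ending _s_at marks a probe set whose probes can match more than 1 transcript, and whether 262119_s_at also detects a related gene, such as the adjacent *GSTF7*, was not tested. Of 18 cell type markers, 2 were assigned. The mesophyll marker *RCA*, Rubisco activase, had group means between 12.53 and 12.78, and the guard cell marker *FAMA* had group means between 5.08 and 5.31. The probe set for *LecRK-VI.2* was dim. After *Psm*, it was at 5.63, 5.68 and 5.45 in *lecrk-VI.2-2* and at 5.78, 5.91 and 5.84 in WT, without overlap, a difference of −0.26 that missed the threshold (*q* = 0.089). After MgCl2, it averaged 5.56 in *lecrk-VI.2-2* and 5.48 in WT (*q* = 1). That for *BAK1* lay between 5.48 and 5.96, and a point mutation need not change it. The SAR marker *PR1* averaged 6.31 after *Psm* and 6.01 after MgCl2 in *lecrk-VI.2-2*, 7.51 and 5.87 in *bak1-5*, and 9.66 and 5.87 in WT. On 2 *lecrk-VI.2-2* arrays, MgCl2 replicate 2 and *Psm* replicate 3, 16.0% and 16.8% of probe sets had a signal of at least 6, against 18.2% to 19.6% on the other 16.

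*GSTF6* rose in systemic leaves of all 3 genotypes after *Psm*, by less in *lecrk-VI.2-2* than in WT. In *lecrk-VI.2-2*, its log2 signal was 6.86, 7.63 and 7.47 after *Psm* and 5.81, 5.63 and 5.34 after MgCl2. In *bak1-5*, it was 7.97, 7.78 and 7.98 after *Psm* and 5.39, 5.00 and 5.17 after MgCl2. In WT, it was 9.34, 9.03 and 9.13 after *Psm* and 5.56, 5.72 and 5.60 after MgCl2. Every *Psm* array therefore lay above every MgCl2 array of any genotype, and the *Psm* arrays of the 3 genotypes did not overlap. The nearest arrays of the mutants were at 7.63 in *lecrk-VI.2-2* and 7.78 in *bak1-5*, and the difference between the mutants, given below, did not pass. How many of all probe sets separate in these ways was not counted, for *GSTF6* or for *CYP79B2* below. The MgCl2 means were all below 6, near the dim end of the array, where RMA signals tend to understate differences.

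The change of *GSTF6* with *Psm* was 1.73 in *lecrk-VI.2-2* (SE 0.16, 3.31-fold, *q* = 8.9e-06), 2.72 in *bak1-5* (6.58-fold, *q* = 3.7e-09) and 3.54 in WT (11.6-fold, *q* = 6.7e-11), all by limma with Benjamini-Hochberg adjustment. By the same threshold of 0.05, 0.607% of all probe sets rose in *lecrk-VI.2-2*, 4.08% in *bak1-5* and 7.36% in WT; with a fold of at least 2 as well, which all 3 changes of *GSTF6* reached, the shares were 0.242%, 0.972% and 2.48%. *GSTF6* had the 27th largest increase of the 22746 probe sets in *lecrk-VI.2-2*, the 33rd in *bak1-5* and the 34th in WT, so its place among all increases was similar while the increases themselves were not. In bulk leaves, fewer responding cells and less RNA per cell cannot be told apart.

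**Figure D1:**
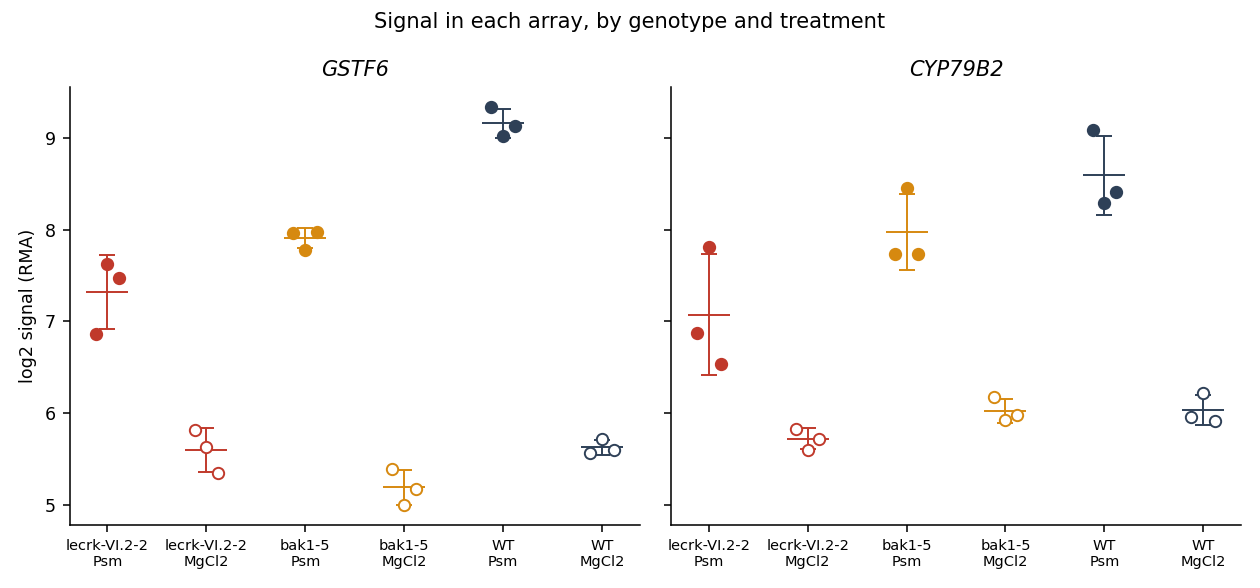
Log2 signal (vertical axis) of *GSTF6* (left) and *CYP79B2* (right) on each of the 18 arrays, by genotype and treatment (horizontal axis; filled points, *Psm*; open points, MgCl2; bars, mean ± SD, n = 3). The *GSTF6* points after *Psm* do not overlap between genotypes, with means of 7.32 in *lecrk-VI.2-2*, 7.91 in *bak1-5* and 9.17 in WT, whereas for *CYP79B2* the neighboring genotypes overlap. The *GSTF6* difference between the mutants after *Psm* did not pass the threshold (limma, *q* = 0.17).

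The difference in the *GSTF6* change was estimated as an interaction, although a smaller change in the mutants was part of the choice of this gene. The change in *lecrk-VI.2-2* minus that in WT was −1.81 on the log2 scale (95% interval −2.29 to −1.33, *q* = 2.1e-04), a comparison in which 1.11% of all probe sets passed in this direction. Between *bak1-5* and WT, the difference was −0.82 (−1.30 to −0.34), which missed the threshold (*q* = 0.097; 1.07% of probe sets passed in this direction). It passed in a fit of the compared arrays alone (*q* = 0.0097), with array weights (*q* = 0.017) and without *lecrk-VI.2-2* *Psm* replicate 1, an array that enters this comparison only through the shared spread (*q* = 0.025). The change in *lecrk-VI.2-2* minus that in *bak1-5* was −0.99 (−1.47 to −0.51, *q* = 0.16), and it passed only with array weights (*q* = 0.012). Just 0.0132% of all probe sets passed in this direction between the mutants.

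After *Psm*, the level of *GSTF6* averaged 7.32 ± 0.41 in *lecrk-VI.2-2* and 7.91 ± 0.11 in *bak1-5*, against 9.17 ± 0.16 in WT (SD, n = 3 each). Both mutants were lower than WT, by −1.85 for *lecrk-VI.2-2* (*q* = 1.2e-06) and −1.26 for *bak1-5* (*q* = 1.2e-04), where 4.73% and 2.28% of all probe sets were lower. *lecrk-VI.2-2* was below *bak1-5* by −0.59 (95% interval −0.93 to −0.25), which did not pass (*q* = 0.17; 0.149% of probe sets were lower). After MgCl2, the levels were 5.59 ± 0.23 in *lecrk-VI.2-2*, 5.19 ± 0.19 in *bak1-5* and 5.63 ± 0.08 in WT. The differences from WT were −0.03 for *lecrk-VI.2-2* (*q* = 1) and −0.44 for *bak1-5* (95% interval −0.78 to −0.10, *q* = 0.99), and *lecrk-VI.2-2* exceeded *bak1-5* by 0.40 (0.07 to 0.74, *q* = 0.7). These intervals are unadjusted. The *bak1-5* difference from WT after *Psm* includes this lower level after MgCl2, whereas the difference of −0.82 in the change does not. In order of level, the steps between WT *Psm*, *bak1-5* *Psm*, *lecrk-VI.2-2* *Psm* and WT MgCl2 were each free of overlap, while the 3 MgCl2 groups overlapped their neighbors. The *bak1-5* and WT arrays after MgCl2, which are not neighbors in this order, did not overlap.

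*CYP79B2* also rose in all 3 genotypes, with more spread between *Psm* arrays than *GSTF6*. In *lecrk-VI.2-2*, its log2 signal was 6.87, 7.81 and 6.54 after *Psm* and 5.83, 5.60 and 5.72 after MgCl2. In *bak1-5*, it was 7.74, 8.46 and 7.74 after *Psm* and 6.17, 5.92 and 5.98 after MgCl2. In WT, it was 9.09, 8.29 and 8.41 after *Psm* and 5.96, 6.22 and 5.91 after MgCl2. All 9 *Psm* arrays again lay above all 9 MgCl2 arrays. After *Psm*, *lecrk-VI.2-2* and WT did not overlap, but *bak1-5* overlapped both of them.

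The change of *CYP79B2* with *Psm* was 1.36 in *lecrk-VI.2-2* (SE 0.26, 2.56-fold, *q* = 0.011), 1.96 in *bak1-5* (3.88-fold, *q* = 7.4e-05) and 2.57 in WT (5.92-fold, *q* = 1.7e-06). It ranked 58th among increases in *lecrk-VI.2-2*, 74th in *bak1-5* and 111th in WT. The *lecrk-VI.2-2* call rested on 1 array: without *Psm* replicate 2, the highest of its group, the change was 0.99 (*q* = 0.056). It was also lost when the fit held no other genotype (*q* = 0.16). Without the pair of arrays with fewer bright probe sets, the change was 1.57 (*q* = 0.0075).

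For *CYP79B2*, no difference in the change between genotypes passed the threshold. The difference was −1.21 between *lecrk-VI.2-2* and WT (95% interval −1.98 to −0.44, *q* = 0.14), −0.61 between *bak1-5* and WT (−1.38 to 0.15, *q* = 0.73), and −0.60 between *lecrk-VI.2-2* and *bak1-5* (−1.36 to 0.17, *q* = 0.83). Without *lecrk-VI.2-2* *Psm* replicate 2, the first of these was −1.58 and passed (*q* = 0.0055). The intervals of the differences that involve *bak1-5* include 0, and that between *lecrk-VI.2-2* and WT, which is not adjusted for the number of probe sets, does not.

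**Figure D2:**
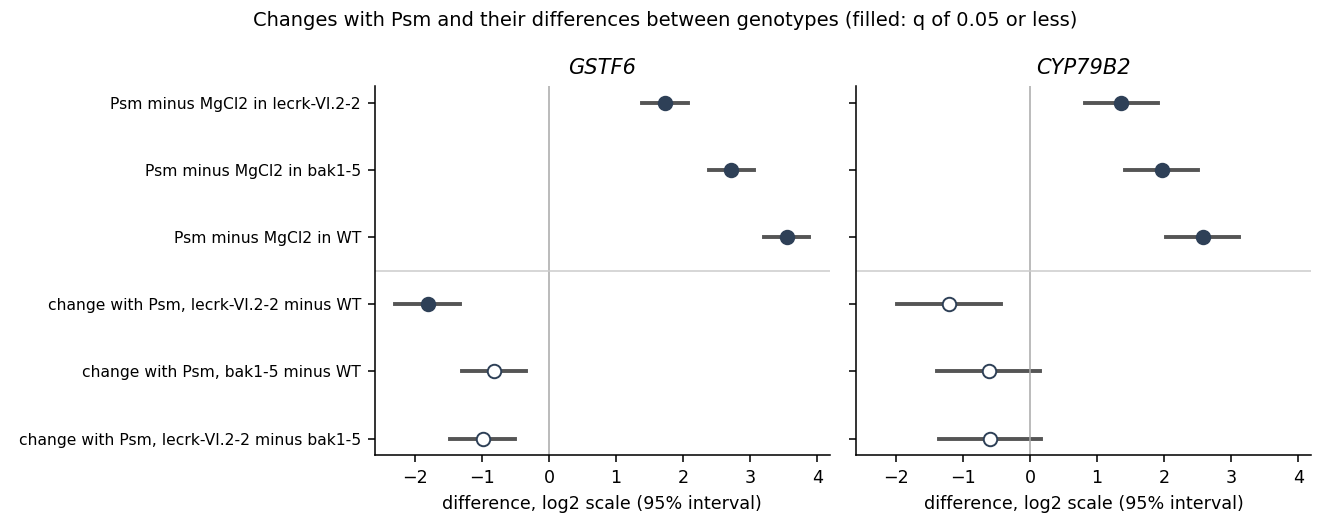
Changes with *Psm* in each genotype (upper 3 rows) and differences of these changes between genotypes (lower 3 rows) for *GSTF6* (left) and *CYP79B2* (right), in log2 units (horizontal axis; points, estimate; lines, unadjusted 95% interval; filled, *q* of 0.05 or less). All 6 changes are filled, and among the differences only that of *GSTF6* between *lecrk-VI.2-2* and WT, at −1.81, is filled.

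The level of *CYP79B2* after *Psm* averaged 7.07 ± 0.66 in *lecrk-VI.2-2* and 7.98 ± 0.42 in *bak1-5*, against 8.60 ± 0.43 in WT (SD, n = 3 each). *lecrk-VI.2-2* was lower than WT by −1.53 (*q* = 0.0011). *bak1-5* differed from WT by −0.62 (−1.16 to −0.08, *q* = 0.26), which passed only with array weights (*q* = 0.021). *lecrk-VI.2-2* differed from *bak1-5* by −0.91 (*q* = 0.19), and by −1.28 without *lecrk-VI.2-2* *Psm* replicate 2 (*q* = 0.017). After MgCl2, the levels were 5.71 ± 0.11 in *lecrk-VI.2-2*, 6.02 ± 0.13 in *bak1-5* and 6.03 ± 0.17 in WT. No difference between genotypes after MgCl2 passed for either gene by this test, in which none of the 22746 probe sets passed between *lecrk-VI.2-2* and WT and 0.0528% were higher and 0.0044% lower in *bak1-5* than in WT. Between *lecrk-VI.2-2* and *bak1-5* after MgCl2, 0.0308% were higher and 0.0396% lower.

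Within a group, the *Psm* replicates of *CYP79B2* can be set beside those of tryptophan synthesis genes and of *GSTF6*. Set against the MgCl2 mean of its genotype, *CYP79B2* stood higher by 1.15, 2.09 and 0.82 on the 3 *lecrk-VI.2-2* *Psm* arrays, by 1.72, 2.44 and 1.71 in *bak1-5*, and by 3.05, 2.26 and 2.38 in WT. The mean of 5 genes of tryptophan synthesis stood higher by 0.53, 1.43 and 0.29 in *lecrk-VI.2-2*, by 0.99, 1.40 and 0.51 in *bak1-5*, and by 2.01, 1.25 and 1.60 in WT. In each genotype the array with the highest *CYP79B2* was thus also the array with the highest tryptophan genes. That array was also highest for the mean of the 10 other assigned genes of camalexin and indole glucosinolate synthesis. This mean stood higher there by 1.17 in *lecrk-VI.2-2*, 1.04 in *bak1-5* and 1.63 in WT. *CYP79B2* and the tryptophan genes were lowest on *Psm* replicate 3 in *lecrk-VI.2-2* and in *bak1-5*, although *CYP79B2* was nearly equal on *bak1-5* replicates 1 and 3. These 2 arrays had 16.8% and 18.2% of probe sets at 6 or more, and the part of this in their values was not tested. *GSTF6* stood higher by 1.27, 2.04 and 1.88 in *lecrk-VI.2-2*, by 2.78, 2.59 and 2.79 in *bak1-5*, and by 3.72, 3.40 and 3.50 in WT. It was thus more even within *bak1-5* and WT. In *bak1-5*, its lowest array was the array on which *CYP79B2* was highest. In *lecrk-VI.2-2*, both genes were highest on *Psm* replicate 2, and in WT the replicates had the same order for both genes.

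Around these 2 genes, 24 genes of camalexin and indole glucosinolate synthesis were listed, and 12 of them had a probe set assigned to them alone. Of these 12, 3 rose with *Psm* in *lecrk-VI.2-2*, 6 in *bak1-5* and 12 in WT, where 0.607%, 4.08% and 7.36% of all probe sets rose, with median changes of 0.78, 1.00 and 1.77 against −0.00, −0.04 and −0.04 over all probe sets. The WT count was partly fixed by the naming, since 11 of the 12 were assigned only through the list of genes that rose in WT, where the smallest change was 0.33. The same naming favors WT in each comparison of these genes with a mutant. The *lecrk-VI.2-2* count fell to 1 without *lecrk-VI.2-2* *Psm* replicate 2. The unassigned genes were *CYP71A12*, *CYP71A13*, *PAD3*, *GSH1*, *CYP81F2*, *CYP81F3*, *CYP81F4*, *IGMT1*, *IGMT2*, *MYB34*, *MYB51* and *MYB122*.

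Upstream of *CYP79B2*, all 5 assigned genes of tryptophan synthesis rose in WT, 2 in *bak1-5* and none in *lecrk-VI.2-2*. Over all probe sets, 7.36% rose in WT, 4.08% in *bak1-5* and 0.607% in *lecrk-VI.2-2*. The changes in WT were 1.59 for *ASA1*, the alpha subunit of anthranilate synthase, which commits chorismate to tryptophan, 1.61 for *TRP1*, anthranilate phosphoribosyltransferase, and 1.91 for *IGPS*, indole-3-glycerol-phosphate synthase. The tryptophan synthase genes *TSA1* and *TSB2*, for the alpha and beta subunits, changed by 1.53 and 1.46. The *TSB2* probe set was dim and ends in _s_at, and its match to other transcripts, such as that of *TSB1*, was not tested. In *bak1-5*, *IGPS* (1.34, *q* = 0.0073) and *TSB2* (0.96, *q* = 0.0045) rose, and *IGPS* lost the threshold without *bak1-5* *Psm* replicate 2 (1.05, *q* = 0.053). None of the 5 passed in *lecrk-VI.2-2*, where the changes lay between 0.62 and 1.01. Of the 5, 4 were assigned through the list of genes that rose in WT, so the WT count was partly fixed by the naming. Not assigned were *ASA2*, *ASB1*, *PAI1*, *PAI2*, *PAI3* and *TSB1*.

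**Figure D3:**
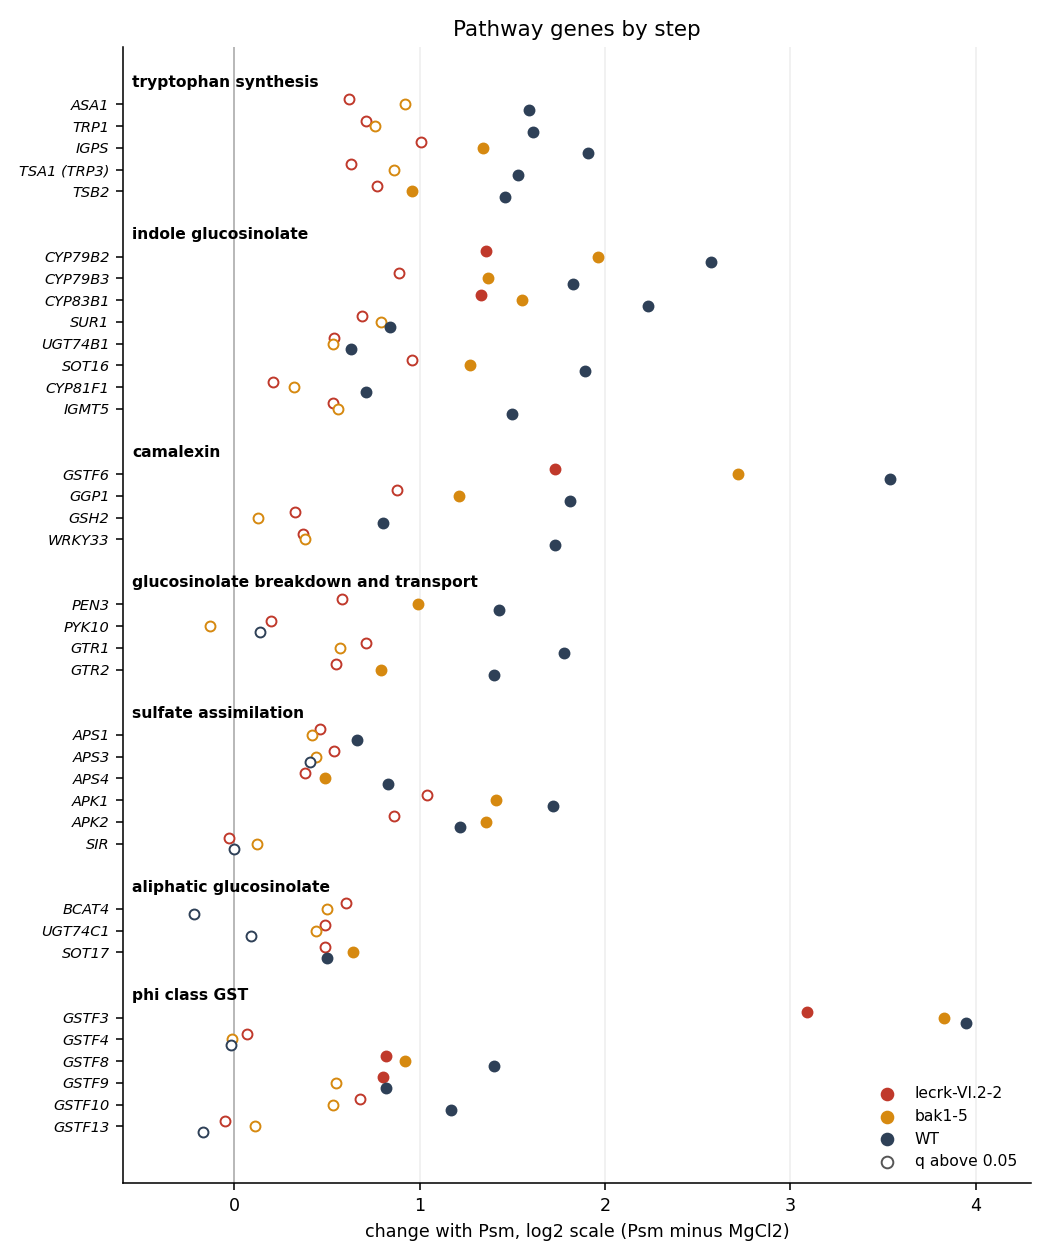
Change with *Psm* in log2 units (horizontal axis) for each assigned gene of the lists (vertical axis, grouped by step), in *lecrk-VI.2-2*, *bak1-5* and WT (colors; filled, *q* of 0.05 or less). *GSTF6* and *GSTF3* reach the highest changes in all 3 genotypes, and the WT points lie to the right of both mutants for all 5 tryptophan genes and all 12 camalexin and indole glucosinolate genes. Of these, 4 of the 5 and 11 of the 12 were named only through the list of genes that rose in WT, which favors this order.

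At the step of CYP79B2 itself, *CYP79B3* changed by 0.89 in *lecrk-VI.2-2* (*q* = 0.11), 1.37 in *bak1-5* (*q* = 0.0016) and 1.83 in WT (*q* = 4.2e-05). *CYP83B1*, which oxidizes the aldoxime toward indole glucosinolates, rose in all 3 genotypes, by 1.33 in *lecrk-VI.2-2* (*q* = 0.0082), 1.55 in *bak1-5* (*q* = 4.1e-04) and 2.23 in WT (*q* = 4.1e-06). Its *lecrk-VI.2-2* call was also lost without *Psm* replicate 2 (1.08, *q* = 0.058) and in the fit without the other genotypes (*q* = 0.13). Together with *GSTF6* and *CYP79B2*, *CYP83B1* made up the 3 genes of the 12 that rose in *lecrk-VI.2-2*.

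Later in the indole glucosinolate branch, *SOT16*, the sulfotransferase of the last core step, changed by 0.96 in *lecrk-VI.2-2* (*q* = 0.11), 1.27 in *bak1-5* (*q* = 0.0051) and 1.89 in WT (*q* = 6.1e-05). The C-S lyase gene *SUR1* and the glucosyltransferase gene *UGT74B1*, whose enzymes serve other glucosinolates too, rose in WT by 0.84 (*q* = 0.022) and 0.63 (*q* = 0.014). In the mutants, *SUR1* changed by 0.69 in *lecrk-VI.2-2* and 0.79 in *bak1-5*, and *UGT74B1* by 0.54 and 0.53, with none of the 4 past the threshold. Both WT calls were lost without any 1 of 4 WT arrays (MgCl2 replicates 1 and 3, *Psm* replicates 1 and 3), with *q* values up to 0.11. The ring modification genes *CYP81F1*, a hydroxylase, and *IGMT5*, a methyltransferase, rose in WT by 0.71 (*q* = 0.0058) and 1.50 (*q* = 0.0023) and passed in neither mutant; *CYP81F1* stayed dim, and its call was lost without WT *Psm* replicate 1 (0.57). In this group of 8 genes, no difference of the change between genotypes passed. Over all probe sets, 1.11% passed as lower in *lecrk-VI.2-2* minus WT, 1.07% in *bak1-5* minus WT and 0.0132% in *lecrk-VI.2-2* minus *bak1-5*. At such shares, a count of 0 among 8 genes does not show that the changes were alike. The median differences of the 8 were −0.91, −0.53 and −0.16 in the same order.

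In the camalexin list, *GGP1*, a peptidase that trims the glutathione conjugates of both branches, changed by 0.88 in *lecrk-VI.2-2* (*q* = 0.26), 1.21 in *bak1-5* (*q* = 0.019) and 1.81 in WT (*q* = 3.2e-04). The *bak1-5* call was lost without any 1 of 4 *bak1-5* arrays (MgCl2 replicates 2 and 3, *Psm* replicates 1 and 2), with *q* up to 0.093. *GSH2*, glutathione synthetase, changed by 0.33 in *lecrk-VI.2-2*, 0.13 in *bak1-5* and 0.80 in WT (*q* = 0.012). The WT call was lost without MgCl2 replicate 3 or *Psm* replicate 1 of WT (*q* up to 0.08).

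*WRKY33*, a transcription factor that binds promoters of camalexin genes, rose in WT and passed in neither mutant. Its change was 0.37 in *lecrk-VI.2-2* (*q* = 0.66) and 0.38 in *bak1-5* (*q* = 0.32), against 1.73 in WT (*q* = 1.2e-05). The difference of the change was −1.35 between *lecrk-VI.2-2* and WT (*q* = 0.025), −1.34 between *bak1-5* and WT (*q* = 0.024), and −0.01 between the mutants (*q* = 1). The first 2 differences were each lost on leaving out any 1 of 7 arrays of the genotypes compared, with *q* values up to 0.09 and 0.079, and the difference for *lecrk-VI.2-2* was also lost without the pair of arrays with fewer bright probe sets. The level of *WRKY33* reached 6 only in WT after *Psm*, where it averaged 6.17 ± 0.21 (SD, n = 3).

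After *Psm*, 8 of the 12 camalexin and indole glucosinolate genes and all 5 tryptophan genes had a lower level in *lecrk-VI.2-2* than in WT, whereas 2 of the 12, *GSTF6* and *WRKY33*, and none of the 5 were lower in *bak1-5* than in WT. Over all probe sets, 4.73% were lower in *lecrk-VI.2-2* than in WT and 2.28% in *bak1-5*, and whether the 2 counts differ was not tested. The medians over the 12 were −1.04 for *lecrk-VI.2-2* and −0.57 for *bak1-5*, against 0.03 and −0.00 over all probe sets. None of these genes passed between the mutants, where 0.149% of all probe sets were lower in *lecrk-VI.2-2*. Both comparisons share the WT arrays. Of the 8, the calls of *GSTF6*, *CYP79B2* and *WRKY33* held with each array left out in turn. The other 5 and all 5 tryptophan genes lost the threshold on leaving out any 1 of WT *Psm* replicate 1 and *lecrk-VI.2-2* *Psm* replicates 1 and 3, and some of them on leaving out other arrays, with *q* values up to 0.26.

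Sulfate assimilation supplies both branches with sulfur, as cysteine for glutathione and as the sulfate donor PAPS for glucosinolates. Of 6 assigned genes, 3 of them named only through the list of genes that rose in WT, none rose in *lecrk-VI.2-2*, 3 in *bak1-5* and 4 in WT, against 0.607%, 4.08% and 7.36% of all probe sets. Their median changes were 0.50 in *lecrk-VI.2-2*, 0.47 in *bak1-5* and 0.74 in WT. The APS kinases, which make PAPS, changed most: *APK1* by 1.04 in *lecrk-VI.2-2* (*q* = 0.15), 1.41 in *bak1-5* (*q* = 0.0079) and 1.72 in WT (*q* = 6.6e-04), and *APK2* by 0.86 in *lecrk-VI.2-2* (*q* = 0.14), 1.36 in *bak1-5* (*q* = 0.0019) and 1.22 in WT (*q* = 0.002). *APK2* is the gene directly next to *CYP79B2* on the chromosome. The ATP sulfurylase gene *APS4* rose in *bak1-5* (0.49, *q* = 0.019) and WT (0.83, *q* = 1.0e-04), and *APS1* in WT by 0.66, whereas *APS3* and the sulfite reductase gene *SIR* passed in no genotype. The *APK1* call in *bak1-5* was lost without *bak1-5* MgCl2 replicate 2 (1.20, *q* = 0.055), that of *APS4* in *bak1-5* without any 1 of MgCl2 replicates 2 and 3 and *Psm* replicate 3 (*q* up to 0.079), and that of *APS1* in WT without WT MgCl2 replicate 3 or *Psm* replicate 1 (*q* up to 0.096). *APS2*, *APR1*, *APR2* and *APR3* were not assigned.

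Aliphatic glucosinolates are made from methionine and do not pass through CYP79B2. Of their 16 listed genes, 3 were assigned, and *SOT17*, a sulfotransferase, was the 1 that rose, by 0.64 in *bak1-5* (*q* = 0.0077) and 0.50 in WT (*q* = 0.021), against 0.49 in *lecrk-VI.2-2* (*q* = 0.13). Over all probe sets, 4.08% rose in *bak1-5*, 7.36% in WT and 0.607% in *lecrk-VI.2-2*. The *bak1-5* call was lost without *bak1-5* MgCl2 replicate 2 (*q* = 0.054), and the WT call without any 1 of 4 WT arrays (MgCl2 replicates 1 and 3, *Psm* replicates 1 and 3). The median of the 3 was 0.49 in *lecrk-VI.2-2*, 0.50 in *bak1-5* and 0.09 in WT. Too few of these genes were assigned to compare the pathways.

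Among genes of glucosinolate breakdown and transport, *PEN3*, an ABC transporter of the plasma membrane that exports indole compounds, changed by 0.58 in *lecrk-VI.2-2*, 0.99 in *bak1-5* (*q* = 0.0015) and 1.43 in WT (*q* = 1.8e-05). Its level after *Psm* was lower than in WT by −1.19 in *lecrk-VI.2-2* (*q* = 3.8e-04) and by −0.94 in *bak1-5* (*q* = 0.004), where 4.73% and 2.28% of all probe sets were lower. After MgCl2, *PEN3* averaged 6.35 in *lecrk-VI.2-2*, 6.19 in *bak1-5* and 6.70 in WT. No difference of its change between genotypes passed, and 1.11% and 1.07% of all probe sets passed as lower in *lecrk-VI.2-2* and *bak1-5* against WT. The glucosinolate importers *GTR1* and *GTR2* rose in WT, by 1.78 (*q* = 7.8e-04) and 1.40 (*q* = 8.7e-05), and *GTR2* also in *bak1-5* (0.79, *q* = 0.022). The *bak1-5* call of *GTR2* was lost without any 1 of 5 *bak1-5* arrays, all but *Psm* replicate 3 (*q* up to 0.1). The beta-glucosidase gene *PYK10*, best known from roots, passed in none, and *PEN2*, *TGG1* and *TGG2* were not assigned.

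Within the phi class of glutathione *S*-transferases, *GSTF6* was 1 of 7 assigned genes, of which 4 rose in *lecrk-VI.2-2*, 3 in *bak1-5* and 5 in WT, against 0.607%, 4.08% and 7.36% of all probe sets. Their median changes were 0.80 in *lecrk-VI.2-2*, 0.55 in *bak1-5* and 1.17 in WT, and 5 of the 7 were named through the list of genes that rose in WT. *GSTF3*, whose probe set also ends in _s_at, changed more than *GSTF6* in each genotype, by 3.09 in *lecrk-VI.2-2* (*q* = 2.4e-05), 3.83 in *bak1-5* (*q* = 2.8e-07) and 3.95 in WT (*q* = 9.8e-08). *GSTF8* rose by 0.82 in *lecrk-VI.2-2* (*q* = 0.0095), 0.92 in *bak1-5* (*q* = 6.8e-04) and 1.40 in WT (*q* = 4.0e-06), and its *lecrk-VI.2-2* call was lost without *Psm* replicate 2 (0.77, *q* = 0.06). *GSTF9* rose by 0.80 in *lecrk-VI.2-2* (*q* = 0.047, a call that 15 of the 18 arrays could each remove) and 0.82 in WT (*q* = 0.0049), and *GSTF10* by 1.17 in WT (*q* = 0.0012). *GSTF4*, a near neighbor of *GSTF6* on the chromosome, changed by 0.07, −0.01 and −0.02 in *lecrk-VI.2-2*, *bak1-5* and WT. *GSTF13* also passed in no genotype. *GSTF5* and *GSTF7*, which flank *GSTF6*, and *GSTF2*, *GSTF11*, *GSTF12* and *GSTF14* were not assigned.

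To describe which genes followed each pattern most closely, Pearson's *r* was computed over the 18 arrays with the 3163 other genes whose highest group mean was at least 6. The 5 genes nearest to *GSTF6* were AT1G76960 (*r* = 0.981), *DMR6* (0.978), *CRT3* (0.978), AT5G55450 (0.975) and AT1G35710 (0.974). *DMR6* encodes an enzyme that hydroxylates salicylic acid, and *CRT3* a calreticulin that helps fold receptors in the endoplasmic reticulum. The 5 nearest to *CYP79B2* were AT5G23820 (0.982), *AOS* (0.982), AT4G17470 (0.981), *LOX2* (0.981) and *IGPS* of tryptophan synthesis (0.979). *LOX2* and *AOS* encode a lipoxygenase and allene oxide synthase, early enzymes of jasmonate synthesis. All points share the same 6 groups, so that these coefficients mostly carry the group means.

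Subtracting the group means leaves only the spread between replicates. The deviations of *GSTF6* from its group means correlated weakly with those of its 5 nearest genes (*r* of −0.13 to 0.47), whereas those of *CYP79B2* correlated with its 5 at 0.84 to 0.91. The nearest genes were picked on the same 18 arrays, and the spread between replicates entered the picking. It entered more for *CYP79B2*, whose *Psm* replicates spread more, so this contrast is partly built in. Over all 3163 genes, the median was −0.12 for *GSTF6* and 0.22 for *CYP79B2*, and 5% of genes lay above 0.32 for *GSTF6* and above 0.75 for *CYP79B2*. *IGPS* had the highest of these values with *CYP79B2*, 0.91, and *TSA1* also had 0.91. Genes outside tryptophan synthesis also had high values, with 0.89 for *GSH2*, 0.88 for *AOS* and 0.83 for *GSTF10*. *CYP79B3* and *CYP83B1* each had 0.82 with *CYP79B2* and 0.28 and 0.20 with *GSTF6*. *GSTF6* and *CYP79B2* themselves correlated at 0.947 over the 18 arrays and at 0.38 after subtraction. *CYP79B2* was the 37th nearest gene to *GSTF6*, and *GSTF6* the 93rd nearest to *CYP79B2*.

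**Figure D4:**
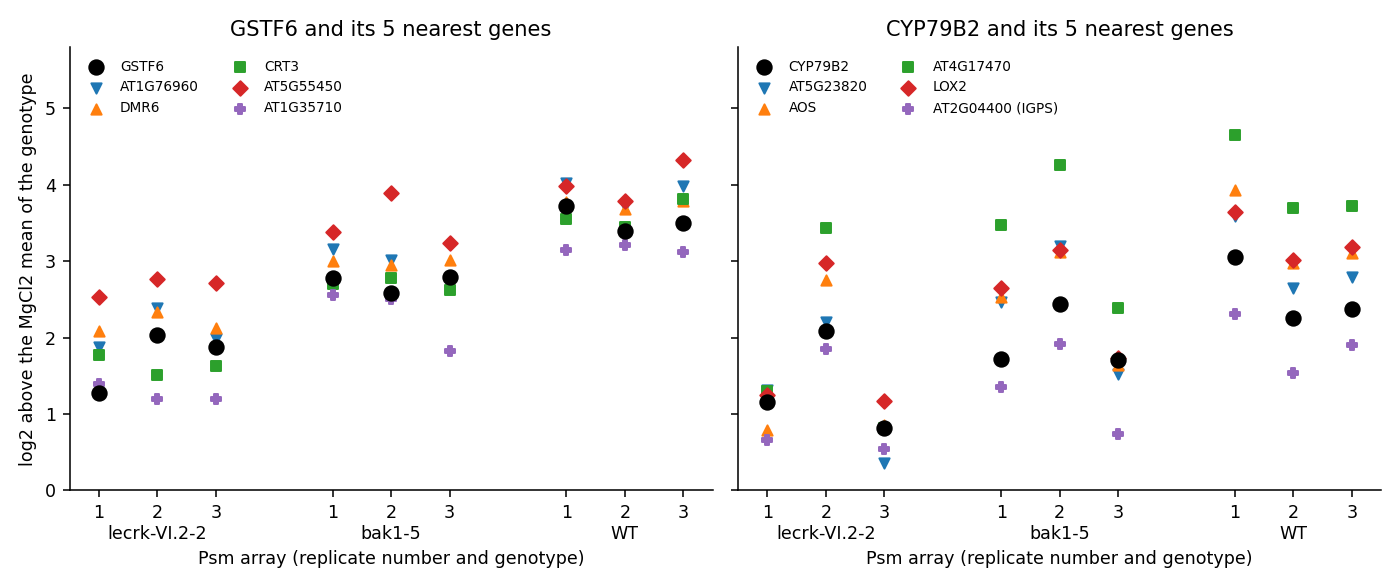
Log2 signal on each *Psm* array above the MgCl2 mean of its genotype (vertical axis) for *GSTF6* (left, black) and *CYP79B2* (right, black) with the 5 genes nearest to each (colors), by genotype and replicate number (horizontal axis). On the right, the black and colored points move together between replicates, for example up on *lecrk-VI.2-2* replicate 2, where *CYP79B2* is at 2.09. On the left, they differ mainly between genotypes. The nearest genes were picked on the same arrays, so this is partly built in.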

How the data were processed

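The authors processed the 18 scanned ATH1 arrays with the affy package by robust multi-array averaging (RMA: background correction, quantile normalization, probe summary), and deposited log2 signals per probe set. Quantile normalization makes array distributions equal, so a shift common to most genes would not be seen. The 64 control probe sets were left out, leaving 22746. No 2 arrays held identical values. The model of 6 group means was fitted by limma 3.58.1 (lmFit and eBayes under R 4.3.3; all arrays together; 12 residual degrees of freedom, 18.03 with the prior), two-sided, with Benjamini-Hochberg *q* values over all probe sets within each comparison and a threshold of 0.05. Intervals are unadjusted. The fit was checked on simulated arrays with known changes in WT after *Psm*. That check covered the change in WT, but not the differences between genotypes, the naming or the correlations. There is no read depth on arrays; precision is limited by how many there were.

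The platform annotation assigned 13432 probe sets to 1 gene, and a further 1012 were assigned by matching change and *q* to the 1998 rows of the study's supplementary list, used only as a key; 524 had several genes, 1 had conflicting genes and 7777 had none. *GSTF6*, *CYP79B2* and the lists were chosen with earlier results of these data known. For a listed gene, the probe set with the highest mean was used. Named were the listed genes with a *q* value of 0.05 or less in any change or difference of changes, the mutated genes and *PR1* as checks, and the 5 genes with the highest *r* to each of *GSTF6* and *CYP79B2*. *APS3*, *SIR*, *PYK10*, *GSTF4*, *GSTF13* and the markers *RCA* and *FAMA* fall outside this rule and were named after their values were seen. Same-numbered *Psm* and MgCl2 arrays did not deviate together (*r* of −0.44 to 0.24), so replicate numbers were not treated as pairs. The alternatives were array weights, a fit of the compared arrays alone, a robust eBayes prior with an intensity trend, leaving out dim probe sets (highest group mean below 6), cyclic loess, median centring, a replicate block, leaving out each array, other thresholds, any probe set of a gene, and naming by platform annotation alone. Leaving out the pair of *lecrk-VI.2-2* arrays with fewer bright probe sets was added after the data were seen. Figures were drawn with matplotlib 3.10.9.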

Additional observations from a re-analysis of the deposited data

Results flagged for a closer look

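The change of *GSTF6* with *Psm* differed between *lecrk-VI.2-2* and WT by −1.81 on the log2 scale (limma interaction, *q* = 2.1e-04), with each *lecrk-VI.2-2* *Psm* array below each WT *Psm* array. *GSTF6* was chosen as partly inducible in the mutants and named through the list of genes that rose in WT. This difference therefore describes the choice and does not test it. The change of *WRKY33* differed between *lecrk-VI.2-2* and WT by −1.35 (*q* = 0.025) and between *bak1-5* and WT by −1.34 (*q* = 0.024). Each *WRKY33* difference was lost on leaving out any 1 of 7 arrays of the genotypes compared (*q* up to 0.09 and 0.079). The level of *WRKY33* reached 6 only in WT after *Psm*. It was named only through the list of genes that rose in WT, which favors WT here.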

How the results depend on the processing

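With each array left out in turn, *GSTF6* kept its calls for the changes (1.57 to 1.96 in *lecrk-VI.2-2*, 2.62 to 2.82 in *bak1-5*, 3.45 to 3.61 in WT) and for the difference between *lecrk-VI.2-2* and WT (−1.97 to −1.58), while that between *bak1-5* and WT was −0.91 to −0.72. The changes of *CYP79B2* were 0.99 to 1.62, 1.72 to 2.08 and 2.32 to 2.72 in *lecrk-VI.2-2*, *bak1-5* and WT. Its difference between *lecrk-VI.2-2* and WT was −1.58 to −0.94, and its level after *Psm* in *lecrk-VI.2-2* minus *bak1-5* was −1.28 to −0.64. Differences near 0 after MgCl2 changed sign: *GSTF6* in *lecrk-VI.2-2* minus WT (−0.14 to 0.09, 0.08 with array weights, 0.04 with cyclic loess) and *CYP79B2* in *bak1-5* minus WT (−0.08 to 0.09). The list of 12 genes had 1 to 3 that rose in *lecrk-VI.2-2*, 5 to 8 in *bak1-5* and 8 to 12 in WT, and all probe sets 56 to 186, 604 to 1301 and 1304 to 1986, against 138, 929 and 1674.

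In a fit of the compared arrays alone, the *CYP79B2* change of 1.36 in *lecrk-VI.2-2* was lost, 1 gene of the list and 26 probe sets rose there, and the *GSTF6* difference of −0.82 between *bak1-5* and WT passed. With array weights, these passed: for *GSTF6*, the difference of the change in *bak1-5* minus WT (−0.75) and in *lecrk-VI.2-2* minus *bak1-5* (−1.01) and the level after *Psm* in *lecrk-VI.2-2* minus *bak1-5* (−0.49), and for *CYP79B2* the level after *Psm* in *bak1-5* minus WT (−0.68); the list counts were 8 in *lecrk-VI.2-2* and 10 in *bak1-5*, and 506, 2083 and 2520 probe sets rose in *lecrk-VI.2-2*, *bak1-5* and WT. With cyclic loess, 274 probe sets rose in *lecrk-VI.2-2*, and without the pair of arrays with fewer bright probe sets, 1454 rose in *bak1-5*. Naming by the platform annotation alone left 1 gene of the list, so that the counts were 0, 0 and 1. The cause of these shifts was not tested, except that fewer arrays or named genes entered by construction. With the replicate number as a block, which the arrays did not bear out as a pairing, no call of *GSTF6* or *CYP79B2* changed (*q* = 7.7e-04 for the *GSTF6* difference of −1.81, *q* = 0.01 for the *CYP79B2* change of 1.36), and the list counts were 3, 7 and 12. Of 64 calls of other listed genes, 34 were lost under no setting, 18 under 1 to 5 and 12 under more, and 0 reversed.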
